A study of Mus musculus with 8 samples.

Results

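The genes described here build, sulfate, trim and carry heparan sulfate. There are 10 of them, of 15995 genes with RBM45 peaks in both replicates: Ext1, Ext2, Extl3, Ndst1, Hs6st1, Sulf1, Sulf2, Gpc1, Gpc6 and Sdc2. RBM45 is an RNA-binding protein, and its RNA contacts were mapped by iCLIP, in which UV light fixes protein to RNA before the protein is pulled down and the attached fragments are sequenced. The cells were mHippoE-2, an immortalised mouse hippocampal neuronal line, transduced with a lentivirus so that they expressed mouse RBM45 carrying FLAG and HA tags; the peaks therefore describe the tagged, added protein in 1 line. The series holds 8 libraries in 4 groups of 2, namely CLIP and size-matched input RNA from Mettl3 knockout cells (without the catalytic subunit of the m6A methyltransferase) and the same from wild-type (WT) cells, all with the tagged protein. Only the WT CLIP group is used below, as the peaks of replicate 1, the peaks of replicate 2 and the list of peaks the replicates share, each peak placed in a gene by its midpoint on the gene's strand. The members were chosen by their pathway with their shared peak counts in these libraries known, and Ext1 for having the most, so every value is given as a description, without a test.

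Heparan sulfate is a long sugar chain attached to core proteins at the cell surface and in the matrix, where it binds growth factors, morphogens and guidance cues. EXTL3 starts the chain, a complex of EXT1 and EXT2 in the Golgi lengthens it, NDST1 opens its sulfation by replacing acetyl groups with sulfate, and HS6ST1 adds sulfate at another position. SULF1 and SULF2 remove sulfate outside the cell, the glypicans GPC1 and GPC6 carry chains on lipid-anchored proteins, and syndecan SDC2 carries them on a membrane-spanning one. In neurons these chains take part in axon guidance and synapse formation, and loss of EXT1 or EXT2 in humans causes hereditary multiple exostoses.

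Most of the peaks lay in introns, whose sequence was not analysed here, so the sequences shown are the shared peaks that an annotated transcript covers (GENCODE M21 transcripts, GRCm38) and the peak of a member that falls on a microRNA. The Ext2 peak at chr2:93730223-93730263 on the minus strand was the 1 shared peak of the 10 genes in coding sequence. The Gpc1 peak at chr1:92843059-92843090 on the plus strand lay in intron 1 and was read as the reverse complement of an antisense transcript. Each window spans the replicate 1 and replicate 2 peaks, and capitals mark the bases that lie in both, 19 in Ext2 and 28 in Gpc1.
Ext2 shared peak: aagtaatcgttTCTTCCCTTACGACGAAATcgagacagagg
Gpc1 shared peak: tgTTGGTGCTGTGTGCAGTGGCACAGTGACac

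The trinucleotide GAC, which RBM45 is known to bind, stood 2 times in the Ext2 window and 1 time in the Gpc1 window on the strand shown, which was the strand searched. Sequence could be read for 51 of the 2192 distinct peak intervals of the 10 genes. GAC was in 19 of them (37.3%), against 30.5% of 39234 readable peaks of 30 bp in replicate 1 over all genes and 30.7% of 31649 in replicate 2. TTTTT was in 2 of the 51 (3.92%), against 5.39% and 5.02%. The 51 were of any width, while the peaks set beside them were all 30 bp, so widths were not alike. In 100 bp around the midpoint, GAC was in 33 of 43 readable member peaks (76.7%). A longer window holds any trinucleotide more often, and this window was not counted over all genes. The 76.7% thus has no share to be set against. Neither motif was searched for on the other strand, and 51 peaks are too few to set these shares apart. Of 304 Ext1 intervals 2 could be read, so neither share describes Ext1.

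The strongest replicate 1 peak of Gpc1, with a fold of 4.70, lay at chr1:92850385-92850414 on the hairpin of miR-149, which is encoded within the gene. Fold is the peak caller's ratio of pileup over background, as the authors deposited it. Capitals in the first line mark the 19 bases of the peak that belong to the mature microRNA, and in the second line the seed, bases 2 to 8 (RefSeq, GRCm38.p6). No replicate 2 peak overlapped it, so this is a signal of 1 library.
Gpc1 replicate 1 peak on the miR-149 hairpin: GCTCCGTGTCTTCACTCCCgtgtttgtccg
mmu-miR-149-5p: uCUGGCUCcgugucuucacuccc

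The 10 genes together had 1214 of the 387749 replicate 1 peaks, 980 of the 344700 replicate 2 peaks and 86 of the 16399 shared peaks. The shared list counts replicate 2 peaks that a replicate 1 peak covers for at least 50% of their length. Of the 10 genes, 8 held a shared peak, and over all 15995 genes the share was 38.7%. Ext1 had 48 shared peaks, which is 55.8% of the 86 (95% Wilson interval over peaks 45.3 to 65.8), while it made up 13.5% of the summed gene length of 2090 kb. Gpc6 had 29 and made up 50.3% of that length. The other 8 genes had 9 between them, and Ndst1 and Sulf2 had none. Intervals cover counting error only, since the reads behind each peak are unknown, and whether the 2 libraries came from separate cultures is not stated in the labels. RNA levels were not used, so more RNA of a gene and more binding per RNA cannot be told apart.

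Ext1 did not stand out by its number of peaks in either replicate alone. Per 100 kb of gene it had 52.1 peaks in replicate 1, place 5 of the 10 genes, and 56.0 in replicate 2, place 4. Hs6st1 was highest in replicate 1 with 179 per 100 kb and Gpc1 in replicate 2 with 92.7. Counted by shared peaks, Ext1 came first at 17.01 per 100 kb, followed by Gpc1 at 6.86, Hs6st1 at 5.26 and Gpc6 at 2.76, and the remaining genes lay at 1.24 or lower. In Ext1 30.4% of the replicate 2 peaks were shared (48 of 158, interval 23.7 to 37.9). The share was 4.76% over all replicate 2 peaks, and in the other members it ran from 0 to 9.09%. Of the Ext1 replicate 1 peaks 27.9% (41 of 147) were in the list, against 4.08% over all replicate 1 peaks. These shares depend on the overlap rule, which asks coverage of the replicate 2 peak only. With 50% asked of both peaks, 27 of the 48 shared peaks were left in Ext1 and 26 of the 29 in Gpc6.

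**Figure D1:**
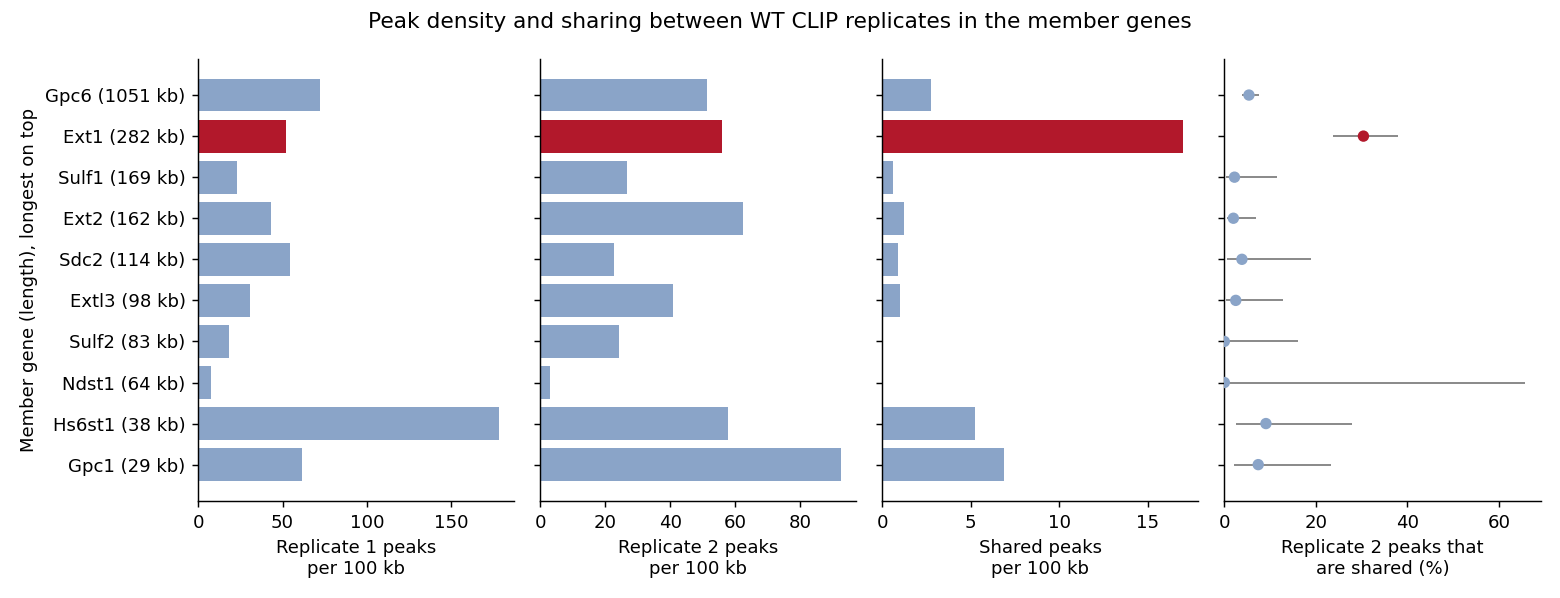
Horizontal bars give, for the 10 genes, peaks per 100 kb of gene (replicate 1, replicate 2, then shared), longest gene on top and Ext1 in red; points in the last panel give the percentage of replicate 2 peaks that are shared, with 95% Wilson intervals over peaks. Ext1 stands at place 5 and place 4 in the single replicates and first in both shared panels, at 17.01 per 100 kb and 30.4%.

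Ext1 (ENSMUSG00000061731, chr15:53064038-53346159, minus strand, GRCm38) spans 282 kb, of which its first intron takes 237 kb or 83.9%. Its median fold was the highest of the 10 genes in each library. The median fold was 3.75 in replicate 1 (147 peaks) and 3.64 in replicate 2 (158 peaks), against 1.93 and 1.92 over all peaks of the series. No Ext1 peak had a fold below 2: the lowest were 2.13 and 2.14. Over all peaks 76.7% in replicate 1 and 69.6% in replicate 2 were below 2. Folds of 3 or more were reached by 116 Ext1 peaks in replicate 1 (78.9%) and 122 in replicate 2 (77.2%), against 7.63% and 11.4% over all peaks. Folds are relative to a background that was not analysed here, so between genes they are not a direct measure of site strength. In replicate 1 a shared Ext1 peak of fold 2.42 had a −log10 p of 2.57. A shared Gpc6 peak of fold 1.95 had 3.53. The peaks were also wider. The minimum width of 30 bp was held by 35.4% of Ext1 peaks in replicate 1 and 24.7% in replicate 2, against 84.0% and 83.4% over all peaks. The widest Ext1 peaks were 439 bp and 204 bp.

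The 48 shared Ext1 peaks had folds from 2.42 to 29.5 in replicate 1 (median 7.23) and from 2.29 to 11.99 in replicate 2 (median 4.79). All shared peaks of the series had medians of 1.95 and 2.38. Replicate 1 gave the higher fold for 36 of the 48 (75.0%), against 68.1% of all shared peaks, with a median ratio of replicate 1 over replicate 2 of 1.57 in Ext1 and 1.02 over all shared peaks. The 48 rest on 41 distinct replicate 1 peaks, 4 of which paired with 11 replicate 2 peaks. Some replicate 1 folds therefore count more than once in these values. A fold of 3 or more in both replicates was reached by 41 of the 48 (85.4%), against 18.6% of all 16399 shared peaks. A fold of 5 or more was reached by 16, against 5.54% of all. Among the 10 genes, Gpc6 was the other with such peaks, 7 at fold 3 and 2 at fold 5, so that 2 of 10 genes held one at each level. Over all genes 10.3% held one at fold 3 and 3.66% at fold 5.

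**Figure D2:**
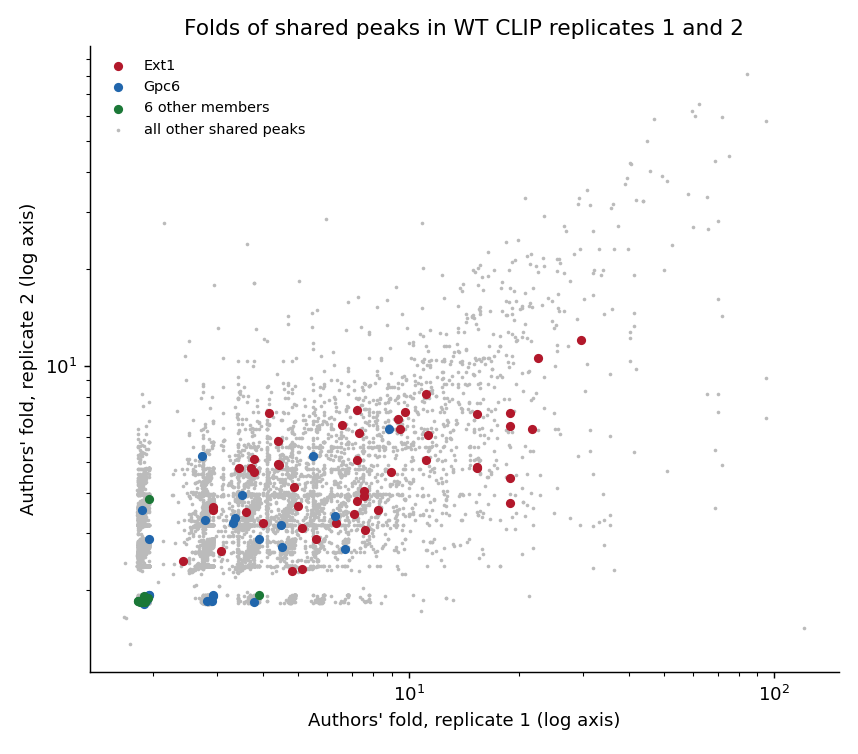
Each point is a shared peak, with the authors' fold in replicate 1 on the x axis and in replicate 2 on the y axis, both on log scales; red is Ext1, blue Gpc6, green the 6 other members with a shared peak, and grey all other shared peaks. Ext1 peaks reach 29.5 and 11.99, whereas 7 of the 9 green points have a fold below 2 in both replicates.

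The shared Ext1 peaks lay in the first intron, mostly in its upstream part, and bunched there. Of the 48, 46 lay in intron 1 (95.8%, interval 86.0 to 98.8), and the other 2 lay in intron 7. In the single replicates intron 1 held 126 of 147 peaks (85.7%) and 152 of 158 (96.2%). The shared peaks began 3.245 kb from the gene start. In 10 bins of equal length along intron 1, in the direction of transcription, their counts were 7, 5, 8, 9, 10, 5, 0, 2, 0 and 0. The first 5 bins thus held 39 and the last 5 held 7, as against 84 and 42 peaks in replicate 1 and 109 and 43 in replicate 2. The peaks of single replicates therefore also thinned out along the intron, and the shared ones more so by count.

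**Figure D3:**
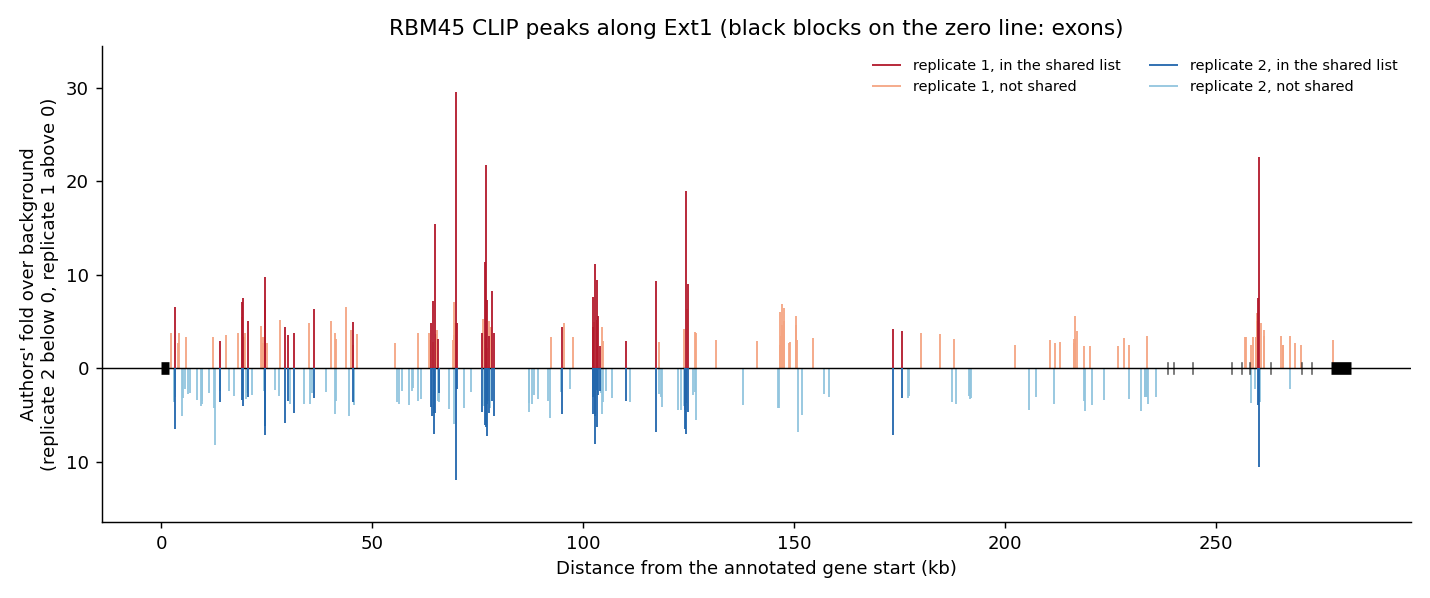
Lines show Ext1 peaks by distance from the annotated gene start in kb, with the authors' fold upwards for replicate 1 and downwards for replicate 2; dark lines are in the shared list, pale lines are not, and black blocks are exons. Dark lines gather between 64.0 and 124.9 kb of intron 1, and 1 strong pair stands in intron 7 at 260.4 kb.

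When shared peaks within 1000 bp of the next were joined, the 48 formed 20 groups. Groups of 2 or more held 37 of the 48 peaks (77.1%), and the median gap between neighbours was 0.415 kb. No interval is given for this share, since a peak enters a group together with its neighbour. The 4 groups of 3 or more peaks held 27. They lay at 64.0 to 65.8 kb (6 peaks over 1847 bp), 76.1 to 78.8 kb (8 peaks over 2805 bp), 102.3 to 103.9 kb (8 peaks over 1679 bp) and 124.1 to 124.9 kb (5 peaks over 783 bp). Counted by replicate 1 peaks they held 4, 7, 7 and 2, so the last is a group of 3 or more only by replicate 2 peaks. The stretch from the first to the last of these groups is 60.9 kb, or 21.6% of the gene. It held 32 of the shared peaks (66.7%), 47 of the replicate 1 peaks (31.97%) and 63 of the replicate 2 peaks (39.9%). Its edges were set by the shared peaks themselves, so a higher percentage of these inside it follows from that choice. Some neighbours share a replicate 1 peak: 4 replicate 1 peaks paired with 11 replicate 2 peaks, so that the 48 correspond to 41 distinct replicate 1 peaks. When each peak had to be covered for at least 50% by the other, 27 Ext1 peaks were left, against 26 in Gpc6.

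The strongest Ext1 site by the lower of its folds was in intron 1 at chr15:53276130-53276288, 69.95 kb from the start. Its fold was 29.5 in replicate 1 and 11.99 in replicate 2, with −log10 p of 89.2 and 34.2 as deposited. The second was the intron 7 peak at chr15:53085699-53085902, with folds of 22.7 and 10.5. Intron 7 is 4.88 kb long, 1.73% of the gene, and held 12 replicate 1 peaks, 5 replicate 2 peaks and 2 shared ones, or 41.0 shared per 100 kb beside 19.4 in intron 1. The next, at chr15:53243261-53243323 (102.9 kb), had folds of 11.2 and 8.13. Of the 10 strongest sites of the gene, 9 lay in intron 1.

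The other 7 of these 10 sites all lay in intron 1, between 3.245 and 124.4 kb. At chr15:53268959-53269058 the folds were 7.25 and 7.29, and at chr15:53321512-53321627 they were 9.78 and 7.18. At chr15:53281314-53281456, within the first group of 6, they were 15.4 and 7.06, and at chr15:53228721-53228788, which stood alone, they were 9.38 and 6.82. The site nearest the gene start, chr15:53342884-53342943, had near equal folds of 6.57 and 6.52. The last pair, chr15:53221727-53221778 and chr15:53221838-53221916, lay on 1 replicate 1 peak of fold 19.0, with replicate 2 folds of 7.10 and 6.49. Ranked by the lower fold, the strongest Ext1 site stood at place 154 among all 16399 shared peaks, so the gene had many shared sites of high fold rather than those of the highest fold.

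Beyond 124.9 kb intron 1 held 2 shared peaks, at 173.5 and 175.6 kb. The 48.6 kb between the last group and the first of these had 18 replicate 1 peaks with folds from 2.46 to 6.89 and 10 replicate 2 peaks with folds from 2.50 to 6.84. Of these, 4 and 3 reached a fold of 5, and 2 of each replicate touched a peak of the other without entering the shared list. Sites of a strength found in the shared stretch were thus present there in each library, mostly at positions that differed. Introns 2 to 5, 9 and 10 of Ext1 held no peak in any list. Intron 6 had 2 replicate 1 peaks, and intron 8 had 5 replicate 1 peaks and 1 replicate 2 peak, none of them shared. Exons held 2 replicate 1 peaks, 1 in coding sequence and 1 in the 3′ UTR, and no replicate 2 peak.

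Stronger Ext1 peaks were more often overlapped by a peak of the other replicate, though not always. Overlap here means by at least 1 bp, a looser rule than that of the shared list. At fold 5 or more, 25 of 39 replicate 1 peaks and 20 of 27 replicate 2 peaks were so overlapped. At fold 3 or more the counts were 46 of 116 and 51 of 122. The median distance from an Ext1 replicate 2 peak to the nearest replicate 1 midpoint was 204.5 bp, and 63 of 158 (39.9%) lay within 100 bp. In Gpc6 it was 465 bp, with 105 of 539 (19.5%) within 100 bp, although replicate 1 peaks were denser in Gpc6 than in Ext1. Hs6st1, where replicate 1 peaks were densest, came near Ext1 at 235.5 bp, with 7 of 22 (31.8%) within 100 bp. The medians of the remaining genes ran from 332 bp in Sdc2 to 1383.5 bp in Sulf2.

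Against genes of like length (0.67 to 1.5 times its own, with peaks in both replicates), Ext1 ranked first of 796 by shared peaks. The median of these genes was 2 shared peaks, and 68.2% had at least 1. By replicate 1 peaks Ext1 ranked 236 of 796 and by replicate 2 peaks 187 of 796, with medians of 69 and 74.5. Next by shared peaks were Ttc28 with 32 (418 and 444 peaks in replicates 1 and 2), Mad1l1 with 31 (414 and 400) and Prune2 with 29 (292 and 232). When each peak had to be covered for at least 50% by the other, a recount chosen after seeing the data, Ext1 was still first of the 796, but with 27 against 25 in Mad1l1 and 23 each in Ttc28 and Prune2. By the listed overlap, Atxn1 and Cep128 had 25 each, a count that Kif26b tied. Each of these 6 genes had more peaks than Ext1 in both replicates, and 7.21% (Ttc28), 7.75% (Mad1l1) and 12.5% (Prune2) of their replicate 2 peaks were shared.

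Over all 15995 genes, 1 other had as many shared peaks as Ext1, the model Gm20388, which is 4434882 bp long and spans other genes. With 50% coverage asked of both peaks, Ext1 held place 5 with 27, behind Gm20388 with 38, Cdh13 and Wwox with 33 each and Atrnl1 with 30, all of them longer genes (named after their values were seen). At fold 3 or more in both replicates Ext1 ranked first with 41, and at fold 5 or more first with 16. There were 544 genes with 100 or more peaks in each replicate. Among them Ext1 had the highest share of replicate 2 peaks shared by the listed overlap. The next gene had 14.0% and the median was 4.43%. Among these 544 genes, Ext1 and Trio (named after its values were seen) were the 2 with no peak below fold 2 in either replicate. Trio had 78.2% and 80.6% of its peaks at fold 3 or more. Of its replicate 2 peaks 14.0% were shared, above the median of 4.43% and below the 30.4% of Ext1. A link between fold and sharing was not tested.

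**Figure D4:**
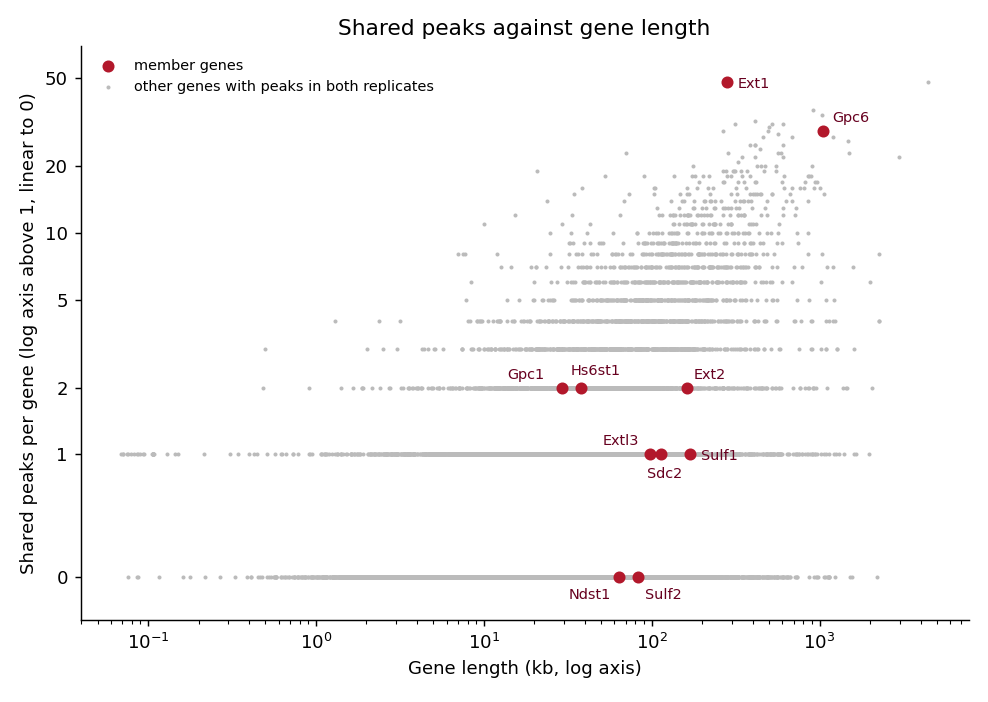
Each point is a gene with peaks in both replicates, with its length in kb on a log x axis and its shared peaks on the y axis (logarithmic above 1, linear to 0); the 10 genes are red and named. Ext1 stands at the top with 48 at 282 kb, Gpc6 has 29 at 1051 kb, and the other 8 have 0 to 2.

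Gpc6 (ENSMUSG00000058571, chr14:116925315-117976544, plus strand), a glypican gene of 1051 kb, had the most peaks of the 10 genes in each replicate, 760 and 539. Its 29 shared peaks were 5.38% of its replicate 2 peaks (interval 3.77 to 7.62), near the 4.76% over all genes. They were spread out, not bunched: 28 groups formed at the same 1000 bp rule, 2 peaks (6.90%) had a neighbour, and the median gap was 22.5 kb. Its first intron is 0.144 kb long and held none. Introns 2 to 5, of 261, 249, 188 and 246 kb, held 7, 5, 5 and 10 shared peaks, and introns 7 and 9 held 1 each.

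Folds in Gpc6 were lower than in Ext1. In replicate 1 545 of its peaks (71.7%) and in replicate 2 307 (57.0%) had a fold below 2, and 63 (8.29%) and 95 (17.6%) reached 3. Its shared peaks had folds from 1.86 to 8.85 in replicate 1 (median 2.82) and from 1.81 to 6.35 in replicate 2 (median 1.92), and 20 of the 29 were 30 bp wide. In 10 of the 29 both folds were below 2, as in 37.4% of all shared peaks. The strongest, in intron 5 at chr14:117665581-117665651, had folds of 8.85 and 6.35. The next, in intron 4 at chr14:117507835-117507864, had 5.47 and 5.23, and no other shared Gpc6 peak reached 5 in both. Among 110 genes of like length Gpc6 held place 3 by shared peaks, behind Wwox with 36 and Cdh13 with 34, place 2 by replicate 1 peaks and place 7 by replicate 2 peaks.

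**Figure D5:**
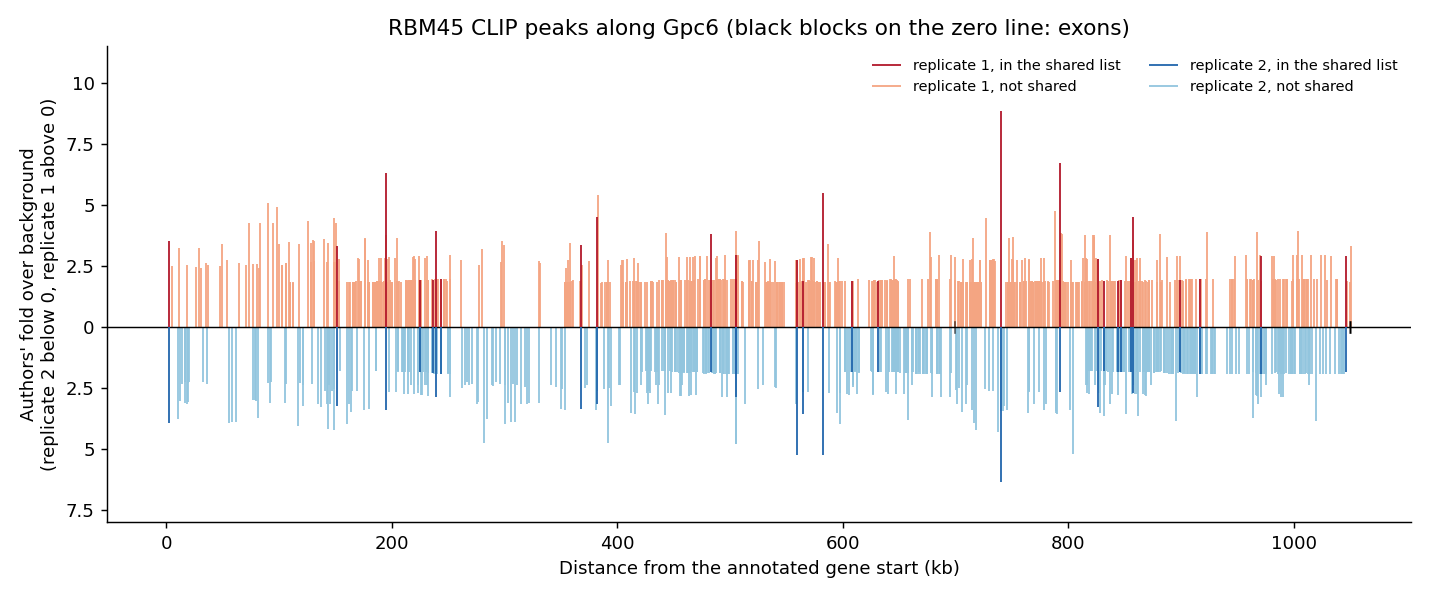
Lines show Gpc6 peaks by distance from the annotated gene start in kb, with the authors' fold upwards for replicate 1 and downwards for replicate 2; dark lines are in the shared list, pale lines are not, and black marks are exons. The 29 shared peaks are scattered along the gene, the highest at 740 kb with folds of 8.85 and 6.35.

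Ext2 (ENSMUSG00000027198, chr2:93661028-93822568, minus strand), the partner of Ext1 in the polymerase, had 70 peaks in replicate 1 and 101 in replicate 2 over 162 kb. Shared were 2 of them, or 1.98% of the replicate 2 peaks (interval 0.545 to 6.93). The coding-sequence peak shown above by sequence had folds of 1.89 and 1.91, and the peak in intron 10 at chr2:93712948-93712977 had 3.89 and 1.92. The first intron of Ext2 is 8.422 kb, 5.21% of the gene, and held 5 and 3 peaks of the replicates and no shared one. The 2 polymerase genes thus had similar peak densities in the single replicates (52.1 and 56.0 per 100 kb in Ext1, 43.3 and 62.5 in Ext2) and different numbers of shared peaks.

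Extl3 (ENSMUSG00000021978, chr14:65052060-65149855, minus strand), the chain initiator, had 30 and 40 peaks and 1 shared peak, in intron 1 with folds of 1.85 and 1.83. Ndst1 (ENSMUSG00000054008, chr18:60684494-60748650, minus strand), the N-deacetylase and N-sulfotransferase, had the fewest peaks, 5 in replicate 1 and 2 in replicate 2, with none shared and none in its first intron of 34.9 kb. With 2 peaks the interval on its shared fraction runs up to 65.8%, so sharing could not be judged at this number of peaks. The folds of its peaks reached 3.71 and 3.50.

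Hs6st1 (ENSMUSG00000045216, chr1:36068400-36106446, plus strand), the 6-O-sulfotransferase gene, has 1 intron, which takes 90.2% of its 38.0 kb. The libraries differed most here by density: 68 peaks in replicate 1 and 22 in replicate 2, with 62 and 21 of them in the intron. The 2 shared peaks, both in the intron, had folds of 1.82 and 1.84 at chr1:36087719-36087748 and of 1.91 and 1.84 at chr1:36093521-36093550. The strongest peak of Hs6st1 was in replicate 2 with a fold of 7.10, and no replicate 1 peak overlapped it. Replicate 1 also had 6 peaks in exons, 4 in coding sequence and 2 in the 3′ UTR, against 1 in the 5′ UTR in replicate 2.

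The sulfatase genes had near-typical or lower peak counts for their lengths. Sulf1 (ENSMUSG00000016918, chr1:12692277-12861192, plus strand), of 169 kb, had 39 and 45 peaks (medians of genes of like length 56 and 45) and 1 shared peak, in intron 4 at chr1:12790648-12790677 with folds of 1.95 and 3.84. Sulf2 (ENSMUSG00000006800, chr2:166073089-166155663, minus strand), of 82.6 kb, had 15 and 20 peaks (medians 30 and 19) and no shared one, which allows a shared fraction of up to 16.1% by the Wilson interval. Its folds did not exceed 2.93 in replicate 1 or 1.92 in replicate 2. By shared peaks Sulf1 was among 225 of 1425 genes of like length that had 1, from place 694 to place 918. Sulf2 was among the 1265 of 2754 that had none, the last place of its set. The median was 1 in each set.

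Among the shorter core protein genes, Gpc1 (ENSMUSG00000034220, chr1:92831645-92860779, plus strand) is the shortest of the 10 at 29.1 kb. All of its 18 replicate 1 and 27 replicate 2 peaks lay in its first intron of 21.2 kb, and the miR-149 peak is 1 of them. Its 2 shared peaks had folds of 1.87 and 1.83 at chr1:92833758-92833787 and of 1.82 and 1.85 at chr1:92843061-92843090, the second being the one whose sequence is shown. Sdc2 (ENSMUSG00000022261, chr15:32920723-33034935, plus strand), of 114 kb, has a first intron that takes 83.9% of the gene, the same percentage as in Ext1. That intron held 52 of its 62 replicate 1 peaks, 24 of its 26 replicate 2 peaks and its 1 shared peak, with folds of 1.94 and 1.88. The introns are alike only as a percentage of the gene. The Sdc2 intron is 95.8 kb long, and that of Ext1 is 237 kb, with 152 replicate 2 peaks and 46 shared ones.

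Taking the 8 genes other than Ext1 and Gpc6 together, their 9 shared peaks were all 30 bp wide. Their folds ran from 1.82 to 3.89 in replicate 1 and from 1.83 to 3.84 in replicate 2, and in 7 of the 9 both folds were below 2. None reached 3 in both replicates. Ranks by shared peaks among genes of like length were wide ties at such low counts. With 2 shared peaks each, Hs6st1 was level with others from place 329 to 710 of 3875, Gpc1 from 260 to 611 of 4061 and Ext2 from 599 to 731 of 1527. With 1 each, Extl3 was level from place 885 to 1355 of 2395 and Sdc2 from 887 to 1293 of 2160. Ndst1 was among the 1580 of 3136 genes with none, the last place of its set. The medians of these sets were 0 or 1.

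Other genes that make heparan sulfate or carry it were counted from a list of 38, of which 34 had peaks in both replicates and 15 held a shared peak, 39 in all. Those 15 are 44.1% of the 34, near the 38.7% over all genes with peaks in both replicates. Shared peaks of fold 3 or more in both replicates numbered 10, in 5 genes, which is 14.7% of the 34 against 10.3% over all genes. Of 7 linker genes 1 held a shared peak (Fam20b, 1), of the 2 polymerase relatives Extl1 and Extl2 none, and of 14 sulfotransferase and epimerase genes 4: Hs2st1 with 6, Hs6st2 with 5, Ndst3 with 3 and Ndst2 with 1. Hs2st1, the 2-O-sulfotransferase gene, had 3 of its 6 at fold 3 or more. Of 10 core protein genes 7 held one: Sdc4 had 5, Sdc3 3, Gpc5 2, and Gpc4, Sdc1, Hspg2 and Agrn 1 each.

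Sdc4, a syndecan gene of 19.6 kb, had 5 of 15 replicate 2 peaks shared (33.3%), and 4 of the 5 had folds of 3 or more in both replicates. That is 25.5 shared peaks per 100 kb, so both values of this short gene were above those of Ext1 (30.4% and 17.01), on 5 peaks. Gpc5, a glypican gene longer than Gpc6 at 1433 kb, had 63 and 57 peaks and 2 shared. Of 5 genes that supply nucleotide sugars and sulfate donors, 3 held shared peaks (Papss1 6, Papss2 2, Slc35b3 1). Of 16 genes that make chondroitin sulfate, the related chain built on the same linker, 8 held shared peaks, 37 in all, led by Ust with 14, Chst11 with 9 and Chpf2 with 5. The 8 are 57.1% of the 14 with peaks in both replicates, against 38.7% over all genes. Of those 37, 4 had folds of 3 or more in both replicates, all in Chpf2, so 1 of the 14 genes held such a peak (7.14%, against 10.3% over all genes). Chpf2, a gene of 7.82 kb, had 5 of 7 replicate 2 peaks shared (71.4%) and 64.0 shared peaks per 100 kb, both above Ext1.

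As a check of the labelled cell type by peaks, 4 of 10 neuronal marker genes held a shared peak (Map2 2, Syt1, Stmn2 and Mapt 1 each) and 2 of 5 neural progenitor genes did. Of other cell types 1 of 6 astrocyte, 1 of 6 oligodendrocyte, 1 of 5 microglia, 0 of 5 endothelial and 2 of 6 fibroblast or mesenchymal genes did. Limited to genes with peaks in both replicates, these were 4 of 8 neuronal and 2 of 2 neural progenitor genes. For the other types they were 1 of 5 astrocyte, 1 of 4 oligodendrocyte, 1 of 4 microglia, 0 of 3 endothelial and 2 of 5 fibroblast or mesenchymal genes. Over all genes with peaks in both replicates the share was 38.7%, and these counts of few genes set no cell type apart. Among the marker lists, shared peaks of fold 3 or more in both replicates stood in 1 fibroblast or mesenchymal gene (Fn1, 2 peaks) and in 0 neuronal genes or genes of the other lists. Peaks are not expression values, and the part of these cell types in the results above was not tested.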

How the data were processed

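Both per-library lists of WT CLIP peaks and the deposited list of shared peaks were analysed. The submitters' processing notes name mm10, MACS2 2.1.1.20160309, Novoalign 3.09.00, HOMER 4.11.1, deepTools 3.2.1 and bedtools 2.25.0. Settings, and whether input was the caller's control, are not given in the labels or files. Peak names in the deposited files carry MACS2 and a p of 0.005. With each peak stands the authors' score (10 times the −log10 p, rounded down), fold (a ratio of pileup over background) and −log10 p, the p-value of the caller. The deposited shared list pairs replicate 2 with replicate 1 peaks and counts the bases in common. In it every replicate 2 peak is covered for at least 50% of its length, and applying that rule to the member genes returned the same number, 86.

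Repeated lines were removed, leaving 387749 of 654978 and 344700 of 581790. Midpoint and strand placed each peak on the basic gene set of GENCODE M21, a peak under overlapping genes counting in each. Peak strand may have come from the gene annotation, which no source states; on the other strand of the 10 gene bodies lay 1 replicate 1 peak (Ext2) and 1 replicate 2 peak (Sulf2). Introns were numbered on the principal APPRIS transcript, and placement was tested on simulated peaks. Read depth is unknown.

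Intervals given with shares are 95% Wilson intervals. No test between groups was run: the 8 library columns of a deposited count table match no sample's labels (16 with its summary) and were not used, so the knockout contrast was not analysed here. Sites named were the 10 shared peaks of Ext1 and the 2 of each other member with the highest lower fold, and the 5 genes of like length with the most shared peaks. A further gene list is not reported here. Members, lists and alternatives were chosen with earlier results of these data known. Computations used pandas 2.3.3, numpy 2.4.6, matplotlib 3.10.9 and scipy 1.17.1 under Python 3.11.15.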

Additional observations from a re-analysis of the deposited data

How the results depend on the processing

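At a fold of 5 or more in both replicates, shared peaks fell to 16 in Ext1 and 18 in the 10 genes, the genes with one to 2, and Ext1 shared peaks to 5.67 per 100 kb, while the share in Ext1 was 88.9%. At −log10 p of 4 or more in both, the 10 genes kept 46 in 2 genes, with 87.0% in Ext1. With 50% overlap asked of both peaks, Ext1 had 27, or 9.57 per 100 kb and 43.5% of the members' shared peaks; its place by shared peaks stayed 1 among genes of like length and was 5, not 1, over all genes. The cause was not tested beyond the stricter rules themselves. Overlap by 1 bp gave 59 in Ext1 and 121 in the 10 genes. Counting replicate 1 peaks, an alternative chosen after seeing the data, gave 41 and 79. Placing peaks by any overlap or using the comprehensive gene set left 48, 86 and 8 as they were. Ignoring strand did too, but could hardly change them. The other strand of the 10 genes held 1 replicate 1 peak (Ext2) and 1 replicate 2 peak (Sulf2). Ext1 held the most shared peaks of the 10 genes under each of these rules, by 27 against 26 in Gpc6 at 50% overlap of both peaks and by 59 against 49 at 1 bp.

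Shared peaks cannot be recounted without a replicate. In the single replicates intron 1 of Ext1 held between 85.7% and 96.2% of its peaks. No paired analysis was possible because the peak lists used belong to 1 group. The number of reads behind a peak is unknown, and a fold is relative to a background that was not analysed here, so a low count of peaks, as in Ndst1, does not show that RBM45 is absent from a gene.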

Other observations

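Weak peaks were spread unevenly along Gpc6. With the gene cut into 10 bins of equal length, the first bin had 25 replicate 1 peaks and 22 replicate 2 peaks, none of them with a fold below 2. In the bins after it the percentage of replicate 1 peaks below 2 ran from 58.8% to 81.4%. In replicate 2 it ran from 0 to 85.9%, and was 0 again in the bin from 315 to 420 kb (25 peaks), where replicate 1 had 32 of its 49 peaks below 2. The range of folds in a stretch of gene thus differed between libraries there, while Ext1 had no peak below 2 in either. Shared peaks per bin of Gpc6 numbered 1 to 6. The bins were chosen after the values were seen, and the background that the folds are relative to was not analysed here.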
